A study of Homo sapiens with 6 samples.

Results

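The genes examined here encode the core and accessory subunits of Polycomb repressive complex 2 (PRC2): EZH1, EZH2, EED, SUZ12, RBBP4, PHF1, MTF2, PHF19, JARID2 and AEBP2. They were chosen by name, as subunits of the complex that MAK683 inhibits, and all 10 were found among the 56638 genes of the ChIP-seq count table. The cells were G401, a malignant rhabdoid tumor line deficient in SMARCB1, a core subunit of the SWI/SNF chromatin remodeler. This deficiency was shared by both treatments, which were DMSO or 3 µM MAK683, a compound that binds EED, each for 3 days. H3K27me3, H3K4me3 and input (sonicated chromatin sequenced without an antibody) were each sequenced in 1 library per treatment, 6 libraries in all.

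PRC2 methylates lysine 27 of histone H3, and its trimethylated form marks silenced developmental genes. EZH1 and EZH2 are the alternative catalytic subunits, EED reads H3K27me3 and stimulates the enzyme, SUZ12 is the scaffold, and RBBP4 binds histones. Accessory proteins divide PRC2 into a form with a Polycomb-like protein (PHF1, MTF2 or PHF19) and a form with JARID2 and AEBP2. H3K4me3 marks the start sites of active or poised genes.

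The libraries held between 13308099 and 21281877 counts. MAK683 accounted for 41.0% of the counts of both H3K27me3 libraries, 48.0% of those of both H3K4me3 libraries and 53.7% of those of both inputs. Each value is therefore a share of its own library, given in CPM, a unit that scales all libraries to one total. It is not an absolute amount of a mark, since the deposited counts carried no spike-in scaling. The study, whose methods describe a spike-in, reported a massive loss of H3K27me3 signal across the genome of G401 under MAK683. A higher share of H3K27me3 under MAK683 therefore does not show a gain of the mark, and the absolute change at a single gene cannot be read from these counts. With 1 library per treatment there was no replicate, no test and no p-value. The intervals given are exact 95% intervals that cover counting error only, Clopper-Pearson intervals of a share or of a ratio derived from it. SMARCB1 had 0 counts in both inputs, which allows up to 3 counts in each (0.178 CPM under DMSO and 0.154 CPM under MAK683), and 4 H3K27me3 counts under MAK683 and 2 H3K4me3 counts under DMSO. The SWI/SNF genes SMARCC2 and BICRA also had 0 counts in all 6 libraries, so a 0 alone does not check the deficiency. The PRC2 genes had between 9.91 and 14.3 input counts per kb under DMSO, EED and PHF19 excepted, from the shortest gene of 6.06 kb to the longest of 317 kb. The counts thus followed the length of the gene, and a narrow promoter mark was averaged over that length.

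RefSeq holds 14 promoter windows of 300 bases for the 10 genes (250 bases before to 50 after a start site, GRCh38.p14). The windows had between 16 and 48 CpG dinucleotides, against a median of 14 over all 35116 windows in the table. Windows of 4 genes are shown because the results turn on them: EZH2 had the largest H3K27me3 difference between treatments, EED binds the compound and had the window with the fewest CpGs, SUZ12 was alone in a lower point value of H3K27me3 in CPM and JARID2 was alone in a higher H3K4me3 share. Capitals mark CpG dinucleotides, and each run is given 5′ to 3′ on the strand of the gene.
EZH2, chr7:148884242-148884541, minus strand: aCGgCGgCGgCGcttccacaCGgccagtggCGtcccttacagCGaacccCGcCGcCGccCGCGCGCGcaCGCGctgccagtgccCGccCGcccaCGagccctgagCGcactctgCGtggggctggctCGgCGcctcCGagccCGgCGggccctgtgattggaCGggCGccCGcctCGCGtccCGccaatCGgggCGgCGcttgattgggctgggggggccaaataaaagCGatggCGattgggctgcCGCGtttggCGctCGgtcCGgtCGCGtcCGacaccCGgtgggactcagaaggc
EED, chr11:86244503-86244802, plus strand: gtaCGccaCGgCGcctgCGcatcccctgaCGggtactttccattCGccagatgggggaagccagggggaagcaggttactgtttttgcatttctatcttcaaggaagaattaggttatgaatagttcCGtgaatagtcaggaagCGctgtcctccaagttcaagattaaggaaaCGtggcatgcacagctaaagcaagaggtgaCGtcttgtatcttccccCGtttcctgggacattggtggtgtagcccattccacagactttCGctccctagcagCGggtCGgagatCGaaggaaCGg
SUZ12, chr17:31936757-31937056, plus strand: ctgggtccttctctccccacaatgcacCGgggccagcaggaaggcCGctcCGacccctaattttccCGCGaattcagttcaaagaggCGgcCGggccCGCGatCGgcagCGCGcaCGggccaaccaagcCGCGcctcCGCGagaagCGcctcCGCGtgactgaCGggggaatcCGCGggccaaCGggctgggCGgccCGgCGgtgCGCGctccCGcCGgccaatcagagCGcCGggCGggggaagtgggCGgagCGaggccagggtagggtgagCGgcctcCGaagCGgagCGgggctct
JARID2, chr6:15245819-15246118, plus strand: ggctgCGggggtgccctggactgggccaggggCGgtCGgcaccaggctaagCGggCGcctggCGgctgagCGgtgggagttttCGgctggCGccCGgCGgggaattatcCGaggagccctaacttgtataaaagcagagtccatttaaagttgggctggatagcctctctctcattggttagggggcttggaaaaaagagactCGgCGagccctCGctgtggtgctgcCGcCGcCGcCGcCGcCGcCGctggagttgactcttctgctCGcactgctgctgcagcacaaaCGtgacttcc
The EZH2 window shown had 46 CpGs, the EED window 16, the SUZ12 window 40 and the JARID2 window shown 24. EZH2 and JARID2 each have another RefSeq window, not shown, with 45 CpGs at EZH2 and 40 at JARID2. All 4 windows shown thus held more CpGs than the median window, and EED was nearest to it.

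An E2F site, the element bound by the cell cycle factors of the E2F family, was searched for as TTTCGCGC, TTTGGCGC, TTTCCCGC or TTTGCCGC on either strand. It was present in the windows of 6 genes (EZH1, EZH2, SUZ12, AEBP2, MTF2 and PHF19), 6 of 14 windows, while 3.31% of all windows held one. The EZH2 window above had TTTGGCGC and the SUZ12 window TTTCCCGC, while the EZH2 window not shown had no E2F site. A GC box (GGGCGG) was in 12 of the 14 windows, from 8 genes, against 45.0% of all windows. CCAAT was in 8 windows, from 6 genes, against 34.6%. The windows of RBBP4 overlap each other, so a site in both is counted for each. TATAAA was found in the JARID2 window shown above and in no other window of these genes, against 11.5% of all windows. An NRF1 site (GCGCATGCG) was matched at EZH1 and by 1.92% of all windows, a YY1 site (AAGATGGCG) at PHF19 and by 1.75%, and an ETS site (CCGGAAGT) at 0 of the 10 genes and by 4.14%. These are matches of letters on both strands, the GC box and E2F letters can share bases, and binding was not measured. All of these motifs except CCAAT and TATAAA contain CG, and the windows of these genes held more CpGs than the median window. No share over windows of like CpG content was computed, so these counts cannot be read as an excess at the PRC2 genes.

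In CPM, the point value of H3K27me3 was below input at all 10 PRC2 genes in both treatments. The interval left out input at 9 under DMSO, all but PHF1, and at 10 under MAK683. No share over all genes was computed for these intervals, so the interval counts cannot be read as an excess at the PRC2 genes. The genes stood under DMSO at a median log2 ratio over input of -1.05, against -0.61 over all genes that reached 10 counts in either library of the ratio. Under MAK683 the median was -0.80, against -0.46 over all genes. The background was high, as 65.7% of all genes were below input under DMSO and 65.9% under MAK683. H3K27me3 was at least 2-fold below input at 6 of the 10 genes under DMSO (EZH1, EZH2, EED, SUZ12, MTF2 and RBBP4), against 26.6% of all genes, and at 2 under MAK683 (EED and SUZ12), against 13.5%. These counts held for the CPM scale. With TMM scaling, 8 of the 10 genes were below input under DMSO, all but AEBP2 and PHF1, and 9 under MAK683, all but AEBP2, against 50.3% and 52.7% of all genes. With that scaling 0 of the 10 genes were 2-fold below input in either treatment, and their medians were -0.43 under DMSO and -0.40 under MAK683.

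By point value, above-input H3K4me3 was found at 8 of the 10 genes in both treatments, against 42.7% of all genes under DMSO and 44.4% under MAK683. By interval it was found at 8 under DMSO and at 6 under MAK683, where EZH1, at 0.14 (-0.01 to 0.29), and SUZ12, at 0.11 (-0.01 to 0.24), could not be told from input. No share over all genes was computed for these intervals either. The exceptions by point value were JARID2 and AEBP2, the longest genes of the group at 276 and 317 kb. These counts held for the CPM scale. With TMM scaling AEBP2 was also above input under DMSO, which made 9 genes, against 48.4% of all genes. Under MAK683 it stayed below input with TMM. H3K4me3 was at least 2-fold above input at EED, PHF1, PHF19 and RBBP4, 4 of 10 genes in each treatment, against 23.9% of all genes under DMSO and 22.5% under MAK683. The median log2 ratio of the 10 genes was 0.67 under DMSO and 0.66 under MAK683, against -0.27 and -0.15 over all genes.

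**Figure D1:**
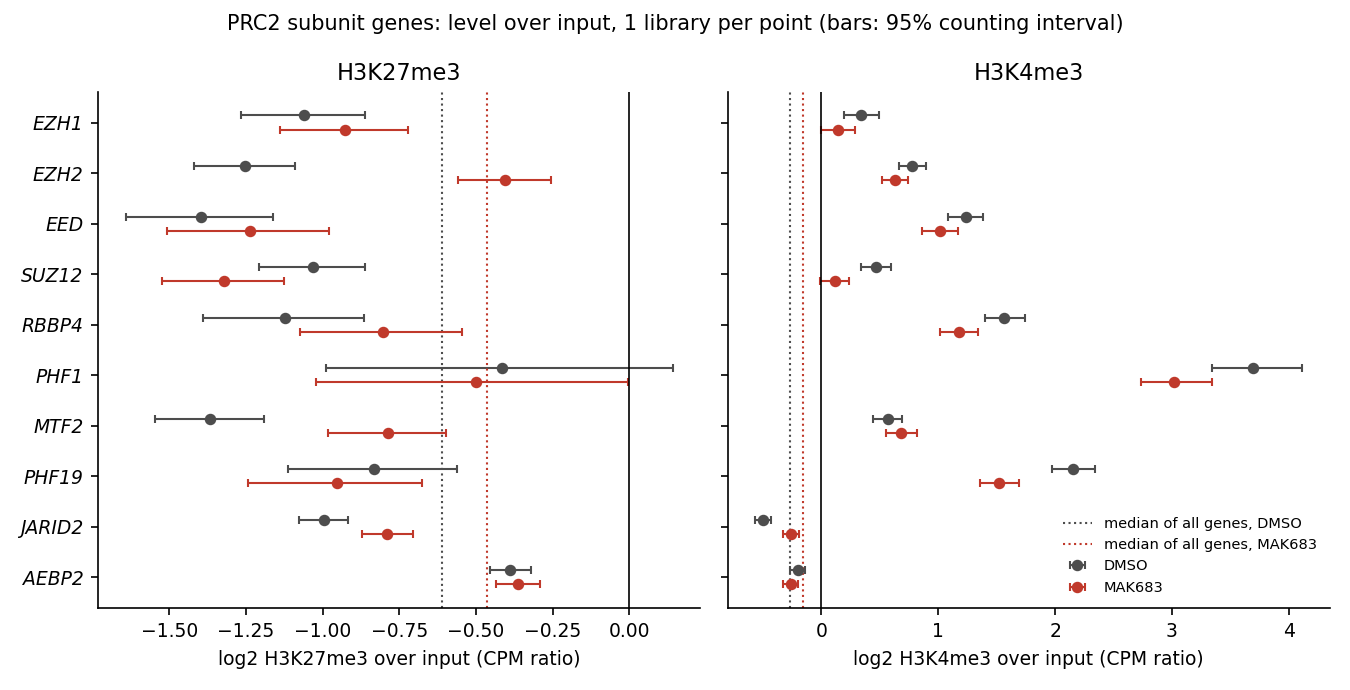
Log2 ratio of H3K27me3 (left) and H3K4me3 (right) over the input of the same treatment for each PRC2 gene, grey for DMSO and red for MAK683, 1 library per point, with 95% counting intervals. Dotted lines are the medians of all genes, and all H3K27me3 points lie left of 0, with the EZH2 points furthest apart.

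By point value in CPM, 8 of the 10 genes lay above input for H3K4me3 and below it for H3K27me3 in both treatments, against 34.9% of all genes under DMSO and 34.8% under MAK683. As a contrast within the same libraries, 5 developmental transcription factor genes, picked by hand from the longer set of genes that the study treats as PRC2 targets and including GATA3, TBX3, HOXD1 and HOXD13, had a median log2 H3K27me3 over input of 2.11 under DMSO and 1.60 under MAK683, and all 5 were above input. The study chose its targets on these samples, so these 5 genes serve only to show where marked genes lie.

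**Figure D2:**
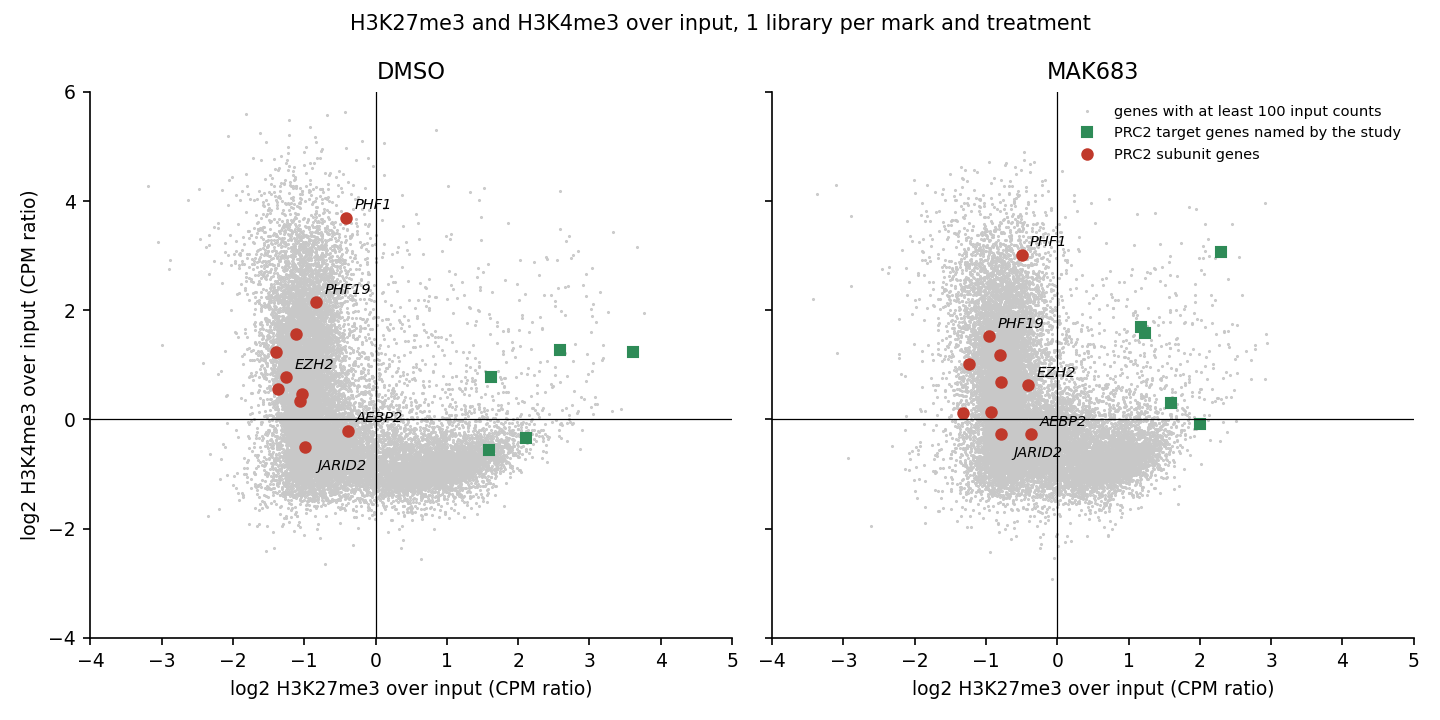
Log2 H3K27me3 over input (horizontal) against log2 H3K4me3 over input (vertical) under DMSO (left) and MAK683 (right), with grey points for the 21263 genes with at least 100 input counts, red circles for the 10 PRC2 genes and green squares for 5 PRC2 target genes. The red circles lie left of 0 in both panels and the green squares right of 0.

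EZH2, the main catalytic subunit of dividing cells, spans 77.1 kb (chr7:148504349-148581413, minus strand, on GRCh37 as for all gene spans given here). It had 442 H3K27me3 counts under DMSO and 535 under MAK683, and was alone among the 10 genes in having more counts in the smaller MAK683 library. Of its H3K27me3 counts in both libraries, the share under MAK683 was 54.8% (interval 51.6 to 57.9), above the library share of 41.0%, a log2 CPM ratio of 0.80 (0.62 to 0.99). Over input, EZH2 stood at -1.25 (-1.42 to -1.09) under DMSO and at -0.41 (-0.56 to -0.26) under MAK683, so the intervals did not overlap and the level remained below input. Its input counts were 926 and 1040, a log2 CPM ratio of -0.05 (-0.17 to 0.08), an interval that includes 0. H3K4me3 counts of EZH2 were 2009 and 1619, a log2 CPM ratio of -0.19 (-0.29 to -0.10).

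Of 10 other genes within 500 kb with at least 100 input counts, the median log2 CPM ratio of H3K27me3 was 0.34, and 0 were above EZH2. This window was chosen after the values were seen. The highest was ZNF212, a zinc finger gene, which at 0.78 was close to EZH2. The nearest gene on one side, CUL1, which encodes a ubiquitin ligase scaffold, had 722 and 575 H3K27me3 counts, a log2 CPM ratio of 0.20. EZH2 thus stood at the top of a neighborhood that itself lay above the median of all genes.

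EZH1, the catalytic subunit that also acts in non-dividing cells, spans 44.8 kb (chr17:40852293-40897067, minus strand). It had 313 and 259 H3K27me3 counts under DMSO and MAK683, 920 and 801 H3K4me3 counts, and 574 and 723 input counts. The share of H3K27me3 under MAK683 was 45.3% (41.1 to 49.5), just above the library share, and that of H3K4me3 was 46.5% (44.2 to 48.9), which includes the library share of 48.0%. H3K27me3 over input was -1.06 under DMSO and -0.93 under MAK683, with overlapping intervals. The catalytic pair thus differed in size, with a log2 CPM ratio of 0.25 (0.01 to 0.49) at EZH1 and 0.80 at EZH2, and the intervals of the 2 genes did not overlap.

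EED, the subunit that binds MAK683, spans 77.6 kb in GENCODE 44 (chr11:85912254-85989855, plus strand). It had 207 H3K27me3 counts under DMSO and 156 under MAK683. Its level over input under DMSO, -1.40 (-1.64 to -1.16), was the lowest of the 10 genes, though the interval overlapped that of MTF2, the next in order, and it stood at -1.24 (-1.51 to -0.98) under MAK683. Its H3K27me3 share under MAK683 was 43.0% (37.8 to 48.2), which includes the library share. H3K4me3 was 1428 and 1097 counts over an input of 480 and 540, a level over input of 1.23 under DMSO and 1.01 under MAK683. Its H3K4me3 share of 43.5% (41.5 to 45.4) was below the library share, a log2 CPM ratio of -0.26.

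The RefSeq start site of EED lies 43.5 kb inside the GENCODE span. Input was 6.19 counts per kb over the whole span under DMSO and 14.1 per kb from the RefSeq start to the gene end, while the median of 15324 protein-coding genes was 12.0. PHF19 was similar, with 7.31 counts per kb over its span of 39.2 kb and 13.3 from the more distal of its 2 RefSeq start sites. The version of the annotation used for counting is not given in the sources used here. The ratios between libraries were computed without this length. H3K4me3 over input still depends on the span that was counted, since a narrow promoter mark is averaged over it.

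SUZ12, the scaffold that joins the core to the accessory subunits, spans 64.0 kb (chr17:30264026-30328057, plus strand). H3K27me3 had 433 counts under DMSO and 264 under MAK683, a share of 37.9% (34.3 to 41.6) that lay below the library share by its point value and included it by its interval. Over input it was -1.03 (-1.21 to -0.86) under DMSO and -1.32 (-1.52 to -1.12) under MAK683, the lowest of the 10 genes there, with an interval that overlapped that of EED. H3K4me3 was 1365 and 1053 counts and input 779 and 968, so H3K4me3 over input was 0.47 under DMSO and 0.11 (-0.01 to 0.24) under MAK683.

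SUZ12 has a pseudogene, listed in the table as SUZ12P, with 382 and 331 H3K27me3, 2628 and 2114 H3K4me3 and 719 and 813 input counts. The copies are closely similar, so reads may be split between them, and the values of SUZ12 are uncertain to that extent. The SUZ12 neighbors UTP6 and LRRC37B had log2 CPM ratios of H3K27me3 of -0.16 and 0.17, on either side of 0.

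RBBP4, a histone-binding subunit shared with other chromatin complexes, spans 35.1 kb (chr1:33116743-33151812, plus strand), of which 82.0% is not shared with another gene. It had 185 and 167 H3K27me3 counts, 1329 and 973 H3K4me3 counts and 355 and 428 input counts. H3K27me3 over input was -1.12 and -0.80, and H3K4me3 over input was 1.56 and 1.17. Its H3K4me3 share under MAK683, 42.3% (40.2 to 44.3), was below the library share, and its H3K27me3 share, 47.4% (42.1 to 52.8), above it. Its 6 pseudogenes in the table had between 0 and 30 counts per library.

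Among the core genes, EED, EZH2, SUZ12 and RBBP4 thus had H3K4me3 shares below that of the library, while EZH1 had an interval that included it.

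PHF1, a Polycomb-like protein that binds H3K36me3, is the shortest of the genes at 6.06 kb (chr6:33378176-33384230, plus strand) and had the highest H3K4me3 over input. It had 996 and 856 H3K4me3 counts over an input of 60 and 104, a log2 ratio over input of 3.70 (3.34 to 4.12) under DMSO and 3.02 (2.74 to 3.34) under MAK683. Its H3K27me3 counts were 51 and 50, and its level over input was -0.41 (-0.99 to 0.14) under DMSO, an interval that includes 0, so at this depth it could not be told from input. The input itself differed, with a log2 CPM ratio of 0.57 (0.11 to 1.06), while H3K4me3 in CPM had a ratio of -0.10 (-0.24 to 0.03). H3K4me3 over input at PHF1 differed by -0.68 between MAK683 and DMSO. This value is the H3K4me3 ratio of -0.10 less the input ratio of 0.57, so the larger part of it is the input. Why the input differed was not tested.

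MTF2, the Polycomb-like protein that recruits PRC2 to CpG islands, spans 59.8 kb (chr1:93544792-93604636, plus strand). It had 376 and 311 H3K27me3 counts, 1597 and 1275 H3K4me3 counts and 853 and 788 input counts. Its input share was below that of the library, with a log2 CPM ratio of -0.33 (-0.47 to -0.19). H3K27me3 over input was -1.37 under DMSO and -0.79 under MAK683, whereas the log2 ratio in CPM was 0.25 (0.03 to 0.47). For H3K4me3 the ratio in CPM was -0.21 (-0.32 to -0.10), and relative to input it was 0.12, the opposite direction.

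PHF19, the third Polycomb-like protein, spans 39.2 kb (chr9:123617929-123657174, minus strand). It had 1619 and 1159 H3K4me3 counts, and its share under MAK683, 41.7% (39.9 to 43.6), was the lowest H3K4me3 share of the 10 genes, a log2 CPM ratio of -0.37 (-0.48 to -0.26). H3K4me3 over input was 2.15 under DMSO and 1.52 under MAK683, and the intervals did not overlap. The input levels of 17.05 and 20.5 CPM had a log2 ratio of 0.27 (0.05 to 0.49), and both the lower H3K4me3 share and the higher input share entered that level. H3K27me3 counts were 183 and 141, a share of 43.5% (38.1 to 49.1) that includes the library share.

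The 3 Polycomb-like genes were thus those whose input intervals left out the library share of 53.7%, MTF2 below it, against 7.78% of all genes, and PHF1 and PHF19 above it, against 9.44%. At the other 7 genes the input interval included the library share.

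JARID2, a DNA-binding subunit of the second form, spans 276 kb (chr6:15246300-15522273, plus strand). It had 3148 H3K4me3 counts under DMSO and 3422 under MAK683, a share of 52.1% (50.9 to 53.3) above the library share and a log2 CPM ratio of 0.24 (0.17 to 0.31). It was the only one of the 10 genes with more H3K4me3 under MAK683, in CPM and in counts as deposited. Its level over input was nonetheless below 0 in both treatments, at -0.50 (-0.57 to -0.43) under DMSO and -0.26 (-0.33 to -0.19) under MAK683, and its input of 3515 and 4076 counts had a log2 CPM ratio of 0.00 (-0.06 to 0.07).

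The H3K27me3 of JARID2 was 2006 and 1609 counts, a share of 44.5% (42.9 to 46.2) above the library share, and stood at -0.995 over input under DMSO and -0.79 under MAK683. Its neighbor DTNBP1, a gene of lysosome-related organelles, was at -1.17 over input under DMSO and had an H3K27me3 log2 CPM ratio of 0.46 and an H3K4me3 ratio of -0.0048. The higher H3K4me3 share was thus not seen at that neighbor.

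AEBP2, a zinc finger subunit that stabilizes the complex, spans 317 kb (chr12:19556979-19873735, plus strand) and had the highest H3K27me3 over input of the 10 genes in both treatments. The next in order, PHF1 under DMSO and EZH2 under MAK683, had intervals that overlapped that of AEBP2. It had 3353 and 2422 H3K27me3 counts over an input of 3856 and 4566, a level of -0.39 (-0.45 to -0.32) under DMSO and -0.36 (-0.43 to -0.29) under MAK683. Under DMSO this was above the median of all genes, while the neighboring gene PLEKHA5 was at -1.10. Its share of H3K27me3 under MAK683 was 41.9% (40.7 to 43.2), and its share of H3K4me3, from 4231 and 3824 counts, was 47.5% (46.4 to 48.6), both including the library shares. AEBP2 had the log2 CPM ratio nearest 0 of the 10 genes for both marks, 0.06 for H3K27me3 and -0.03 for H3K4me3.

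The low H3K4me3 ratios of JARID2 and AEBP2 depend on what is taken as background. With the input scaled to the H3K4me3 library at olfactory receptor genes, which are silent outside the nose (factors of 0.626 under DMSO and 0.719 under MAK683), the H3K4me3 in excess of input was 17.3 and 24.1 CPM at JARID2 and 55.5 and 26.5 CPM at AEBP2. Without this scaling it was -60.8 and -34.5 CPM at JARID2 and -30.2 and -39.1 CPM at AEBP2. The scaling was chosen after the values were seen. At the other 8 genes the excess was above 0 in both treatments either way.

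**Figure D3:**
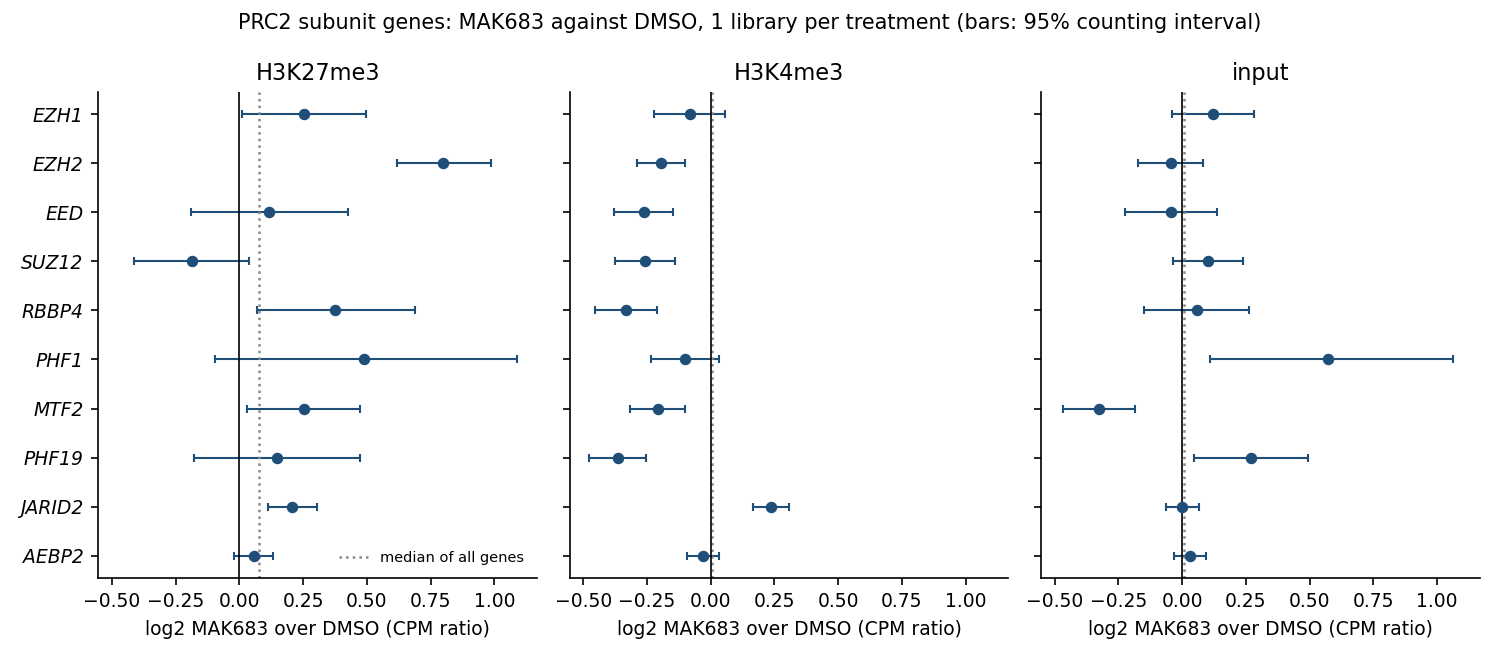
Log2 CPM ratio of MAK683 over DMSO for H3K27me3 (left), H3K4me3 (middle) and input (right) at each PRC2 gene, 1 library per treatment, with 95% counting intervals and the median of all genes as a dotted line. EZH2 stands out for H3K27me3, JARID2 for H3K4me3, and MTF2, PHF1 and PHF19 for the input.

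Across the 10 genes, H3K27me3 in CPM was higher under MAK683 at 9, against 57.4% of all genes, with a median log2 ratio of 0.23 for the 10 genes and 0.079 for all genes. The count was 8 with TMM, where AEBP2 turned to -0.04, and 7 relative to input, where PHF1 turned to -0.08 and PHF19 to -0.12. These are shares of a mark that the study reported as depleted genome-wide, so they do not show a rise in its amount. At 0 of the 10 genes was the difference 2-fold, against 7.15% of all genes and 1.42% of those with at least 100 input counts, a filter that all 10 pass. The interval of the share lay above the library share at 5 genes (EZH1, EZH2, JARID2, MTF2 and RBBP4), against 22.7% of all genes, and below it at 0, against 13.6%. H3K4me3 in CPM was lower under MAK683 at 9 of 10 genes, against 49.6% of all genes, with a median log2 ratio of -0.20 for the 10 genes and 0.003 for all genes. It was 2-fold changed at 0, against 5.94% of all genes and 0.795% of those with at least 100 input counts. The interval lay below the library share at 6 genes (EZH2, EED, SUZ12, MTF2, PHF19 and RBBP4), against 21.3% of all genes, and above it at JARID2, against 19.5%. An interval narrows with the counts of a gene, and the shares over all genes include genes with as few as 10 counts. No share over genes of like depth was computed for the intervals, so these counts cannot be read as an excess at the PRC2 genes.

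The sign of the H3K27me3 differences depended on the scale except at EZH2, higher under MAK683 in every setting tried, and SUZ12, lower in every setting. In the counts as deposited, 9 of the 10 genes had fewer H3K27me3 counts under MAK683, with a median log2 ratio of -0.30 and EZH2 alone higher, at 0.27, while the median of all genes was -0.44. With TMM scaling the median of all genes was -0.02 and that of the PRC2 genes 0.13. A scale adds about the same amount to every gene, so the distance between both medians is nearly fixed from scale to scale. Relative to input, which differs by gene, the medians were closer, at 0.15 for the PRC2 genes and 0.07 for all genes. No scale gives the absolute amount of H3K27me3.

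The differences of all genes varied with their level over input, in a grouping chosen after the values were seen. Among 9460 genes with a mean log2 H3K27me3 over input under -0.75, the median log2 CPM ratio of H3K27me3 was 0.21 (5th to 95th percentile -0.33 to 0.69), and among 1849 genes at 1 or more it was -0.22. Of the 8 PRC2 genes in the first group, 7 lay between these percentiles and EZH2 above them. For H3K4me3, the median ratio was 0.13 among genes under 0 over input, the group of JARID2 and AEBP2, and -0.21 among genes at 2 or more, the group of PHF1. All 10 genes lay between the 5th and 95th percentiles of their H3K4me3 group, JARID2 (0.24 against a 95th percentile of 0.59) included.

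**Figure D4:**
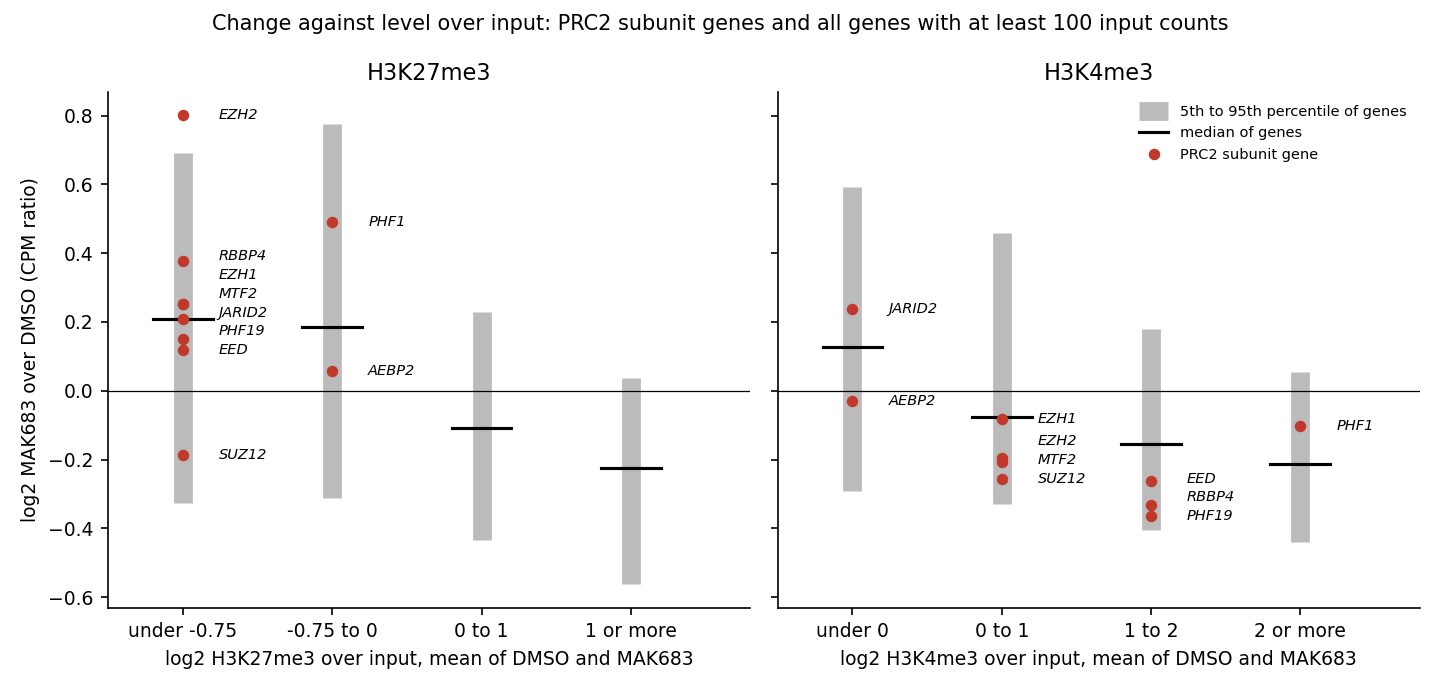
Log2 CPM ratio of MAK683 over DMSO by groups of genes with a like mean level over input, for H3K27me3 (left) and H3K4me3 (right), with grey bars from the 5th to the 95th percentile of genes, black lines at the median and red points for the PRC2 genes. EZH2 lies above the bar of its H3K27me3 group (0.80 against 0.69), and the other PRC2 genes lie within their bars.

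Other genes of the pathway were described in the same way. Of 7 genes for further PRC2 partners and for H3K27 demethylases, EZHIP had 0 counts in all 6 libraries, which allows up to 3 in each. By point value the other 6 were below input for H3K27me3 under DMSO, against 65.7% of all genes. The interval of EPOP, on 25 H3K27me3 and 30 input counts, included 0 (-1.28 to 0.37). RBBP7, the paralog of RBBP4, had 76 and 82 H3K27me3 counts, a log2 CPM ratio of 0.63. EPOP, a partner of the Polycomb-like form, had a log2 H3K4me3 over input of 5.64 under DMSO and 4.02 under MAK683, on 30 and 89 input counts. Its input had a log2 CPM ratio of 1.33 (0.74 to 2.00) and its H3K4me3 one of -0.29, so the larger part of that difference is the input. KDM6B, a demethylase, had the lowest H3K4me3 CPM ratio of these genes, at -0.40, and KDM6A, the other demethylase, was at -0.01. LCOR and LCORL had H3K27me3 CPM ratios of 0.40 and 0.27.

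Of 21 genes for subunits of Polycomb repressive complex 1 (PRC1), 20 were below input for H3K27me3 under DMSO by point value. They ran from -1.43 at PCGF1 upward, with PCGF5 above input at 0.81. Of 24 SWI/SNF subunit genes, 21 passed the count filter and 19 of these were below input, from -1.37 at ACTL6A, while DPF3 was highest at 1.39. Over all genes, 65.7% were below input under DMSO. The intervals of BMI1 in PRC1 (-1.81 to 0.45) and DPF1 in SWI/SNF (-0.48 to 0.07) included 0. The medians were -1.07 for PRC1 and -1.05 for SWI/SNF genes, and their median log2 CPM ratios were 0.24 and 0.16 for H3K27me3 and -0.21 and -0.13 for H3K4me3. The PRC2 genes had -1.05, 0.23 and -0.20, near both lists on these 3 values. For H3K4me3 over input, the PRC1 genes had higher medians, 1.43 under DMSO and 1.02 under MAK683. The SWI/SNF genes had 0.73 and 0.53, and the PRC2 genes 0.67 and 0.66. No difference between these lists was tested.

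Outside these lists, the 5 protein-coding genes nearest to the median profile of the PRC2 genes were PFKFB4, FAM210A, CPNE5, UBTD2 and METAP1, at Euclidean distances of 0.077 to 0.094 over 4 log2 values (both marks over input in both treatments), among 6479 genes with at least 500 counts in each input. The PRC2 genes themselves lay between 0.34 (MTF2) and 3.90 (PHF1) from that median.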

How the data were processed

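The authors trimmed the reads (Trim Galore 0.4.4 per the labels), aligned them with Bowtie2 to hg19, processed the alignments with Picard 2.23.6 and counted reads per gene with featureCounts. The deposited values are whole-number counts of 56638 genes. The authors' methods describe a spike-in normalization, which the deposited counts do not carry, and the annotation used for counting is not given in the sources used here. Log2 ratios were taken on CPM with a pseudocount of 0.05 CPM, for genes that reached 10 counts in either library of a ratio. Coordinates are GENCODE 44 on GRCh37, matched by symbol (33514 genes) or older symbol (1781), and promoter windows are RefSeq on GRCh38.p14. Genes named were the 10 members, 7 further PRC2 and demethylase genes, SMARCB1, 5 targets, the highest and lowest of the PRC1 and SWI/SNF lists, the nearest genes on each side, genes at the ends of a neighborhood and the 5 genes nearest in profile. UTP6, LRRC37B, DTNBP1, CUL1 and PLEKHA5 are such neighbors, and ZNF212, SMARCC2, BICRA, BMI1 and DPF1 were named after their values were seen. The members and lists were chosen with earlier results of these data known. With 1 library per group no test was run. Intervals for medians use order statistics. TMM factors came from edgeR 4.0.16 (R 4.3.3), and the rest was computed with Python 3.11.15, scipy 1.17.1, numpy 2.4.6, pandas 2.3.3 and matplotlib 3.10.9. The computation was tested on simulated data. Alternatives were other scales, pseudocounts, inputs and filters. The planned protein comparison of paralogs was not made, as no protein table was at hand.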

Additional observations from a re-analysis of the deposited data

How the results depend on the processing

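No paired analysis was possible because each mark and treatment had 1 library, so no replicate could be left out either. The median log2 CPM ratio of H3K27me3 over the 10 genes, 0.23, was reversed in the counts as deposited, at -0.30, and kept its direction with TMM, median-of-ratios scaling, a pseudocount of 1 CPM and values relative to input (0.13 to 0.22). In the counts as deposited, which are not scaled for the smaller MAK683 library, the H3K27me3 ratio changed sign at 8 genes. Among them were EZH1 (-0.27), JARID2 (-0.32), MTF2 (-0.27) and RBBP4 (-0.15), whose intervals in CPM had left out 0. At EZH2 the ratio stayed above 0, at 0.27. With TMM, the median of H3K27me3 over input went from -1.05 to -0.43 under DMSO and from -0.80 to -0.40 under MAK683, and AEBP2 and PHF1 under DMSO and AEBP2 under MAK683 passed above input. The H3K27me3 ratio turned below 0 at AEBP2 with TMM and median-of-ratios scaling (-0.04 each) and at PHF1 (-0.08) and PHF19 (-0.12) relative to input. H3K4me3 at MTF2 was reversed relative to input (0.12), and the H3K4me3 in excess of input was reversed at JARID2 (17.3 CPM in DMSO, 24.1 in MAK683) and AEBP2 (55.5 and 26.5) when the input was scaled at olfactory receptor genes. Under DMSO, H3K4me3 at AEBP2 passed above input with TMM and median-of-ratios scaling. With the latter, EZH2 joined the genes at least 2-fold above input, 5 of 10, against 27.6% of all genes. The median H3K4me3 ratio stayed between -0.32 and -0.20 in the alternatives run. The 2-fold counts over all genes depended on the filter: 2139 genes for H3K27me3 and 1784 for H3K4me3 became 5411 (9.55%) and 4582 (8.09%) with no filter, and 301 (1.42%) and 169 (0.795%) with at least 100 input counts, a filter that all 10 PRC2 genes pass. For H3K27me3 at least 2-fold below input under MAK683, 4170 genes became 2142 with at least 100 input counts. Depth limits PHF1 most, with 60 input and 51 H3K27me3 counts under DMSO.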
